A study of Mus musculus with 16 samples.

Results

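The genes described here are those of the SREBP2-driven cholesterol pathway: 8 genes were listed (Hmgcs1, Sqle, Fdft1, Fdps, Idi1, Lss, Dhcr7 and Insig1), and every probe whose platform gene symbol was one of them was taken. Of the 8 genes, 5 had a named probe (Hmgcs1, Sqle, Fdft1, Fdps and Dhcr7), with 6 probes in all among 9930 named genes. Idi1, Lss and Insig1 had no probe under their names and were not analysed here, so all 5 measured members are synthesis enzymes. Two-channel cDNA arrays set kidney RNA of 4 males labelled MFP2-/-, 15 weeks old, against RNA pooled from 5 wild-type males of that age (labelled wt, Swiss strain SWR/Ola Hsd). With 4 arrays for each mutant, 2 labelled with Cy5 and 2 with Cy3, there were 16 in all. MFP2 is peroxisomal multifunctional protein 2, encoded by Hsd17b4, an enzyme that shortens branched and very long fatty acids and the side chains of bile acid precursors. The labels give the mutants no strain other than MFP2-/-, and the title and source name of mouse 1 carry different animal numbers.

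Cholesterol is built from acetyl-CoA in the mevalonate pathway. When sterols in the endoplasmic reticulum run low, the escort protein SCAP carries the membrane-bound transcription factor SREBP2 to the Golgi, where proteases release it. It then turns on nearly all enzymes of the pathway, whereas INSIG proteins hold the SCAP-SREBP complex back when sterols are plentiful. SREBP2 targets carry sterol regulatory elements in their promoters, often beside boxes for NF-Y.

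The promoter of Hmgcs1 is shown because Hmgcs1 had the largest mean ratio of the 5 measured genes and was the only one above 0 in every mouse. It is the stretch of 250 bases upstream of the annotated start, from RefSeq, build GRCm38.p6, chr13:119690101-119690350, plus strand. Capitals mark a match to the sterol regulatory element TCACNCCAC, 137 to 129 bases upstream of the start.
Hmgcs1: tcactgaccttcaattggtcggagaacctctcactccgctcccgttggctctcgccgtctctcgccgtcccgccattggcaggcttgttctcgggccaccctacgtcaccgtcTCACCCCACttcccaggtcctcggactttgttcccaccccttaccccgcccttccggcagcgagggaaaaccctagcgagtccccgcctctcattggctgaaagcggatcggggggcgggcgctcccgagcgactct
That element, searched on both strands in windows that also include 50 bases after the start, was in 1.24% of 32851 promoters. Promoters were at hand for 5 of the 8 listed genes, in 7 windows, and 1 of the 7 windows, of Hmgcs1, had the element. Of these 5 genes only 2, Hmgcs1 and Dhcr7, were measured on the arrays. Sqle, Fdft1 and Fdps had no promoter to search. The NF-Y box CCAAT, which does not overlap the element here, occurred 3 times in the stretch shown, each on the minus strand. It was in 37.4% of all promoters and in 5 of the 7 windows of listed genes, 1 window for each of the 5 genes. The E-box CACGTG, which SREBP proteins can also bind, was in 7.15% of all promoters and in 2 of the 7 windows, 1 of Dhcr7 and 1 of Insig1. A match is a description of the letters and not a measured site.

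All values below are log2 ratios, read as mutant over pool. A mouse's value is the mean of its 2 dye orientations after each array was centred on its median, so n counts mice. The direction is likely rather than stated. The labels give the mutant as the first channel on all arrays, and spots at an extreme value, probably with 1 channel at a floor, were positive in 292 of 292 cases with the mutant in Cy5 and in 0 of 218 with it in Cy3. Arrays of different mice had a median Spearman rho across probes of 0.18 in the same orientation and of -0.10 in opposite orientations. The extreme spots show that their sign turned with the dye, but ratios of pool over mutant would turn in the same way. Neither these counts nor the correlations therefore show which direction holds. If the sign were opposite on all arrays, each higher value would be a lower one. Bulk ratios cannot tell a change in RNA per cell from a change in the number of cells, and they show no level, so the tissue label could not be checked against marker levels.

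For Hsd17b4, the targeted gene, the 2 probes disagreed. Probe 4590 had -1.69, -1.50, -0.10 and -0.34 in mice 1 to 4, and probe 1446 had 0.018, 0.83, 0.34 and 0.52. Neither probe was clearly low in mice 3 and 4. Which exons they cover is not known here. Neither therefore checks the genotype, and the values of the 5 measured members are given per mouse.

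Hmgcs1 encodes cytosolic HMG-CoA synthase, which makes HMG-CoA, the precursor of mevalonate. Averaged over its 2 probes, its log2 ratios were 0.28, 0.57, 0.13 and 0.42 in mice 1 to 4. All 4 mice lay above 0, with a mean of 0.35 ± 0.19 (SD, n = 4) and a 95% interval of 0.14 to 0.56 from limma. Its unadjusted p was 0.00677, rank 152 among 16140 rows, and its limma adjusted p was 0.548 after Benjamini-Hochberg adjustment over all rows, so Hmgcs1 did not pass the threshold of 0.05. A value above 0 in all mice was found in 10.2% of all rows.

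The probes of Hmgcs1 gave the same picture apart. Probe 17455 had 0.26, 0.40, 0.13 and 0.29 in mice 1 to 4, with a mean of 0.27 ± 0.11 (SD, n = 4), and probe 19404 had 0.30, 0.74, 0.14 and 0.55, with a mean of 0.43 ± 0.27 (SD, n = 4). Both probes were highest in mouse 2 and lowest in mouse 3. On single arrays, probe 17455 had a lowest value of -0.20, a median of 0.26 and a highest of 0.55, and probe 19404 had a lowest of -0.37, a median of 0.46 and a highest of 0.87. Each probe was above 0 on 15 of 16 arrays, and its array below 0 was 1 of mouse 3 with the mutant in Cy5. The limma adjusted p was 0.547 for each probe tested on its own.

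**Figure D1:**
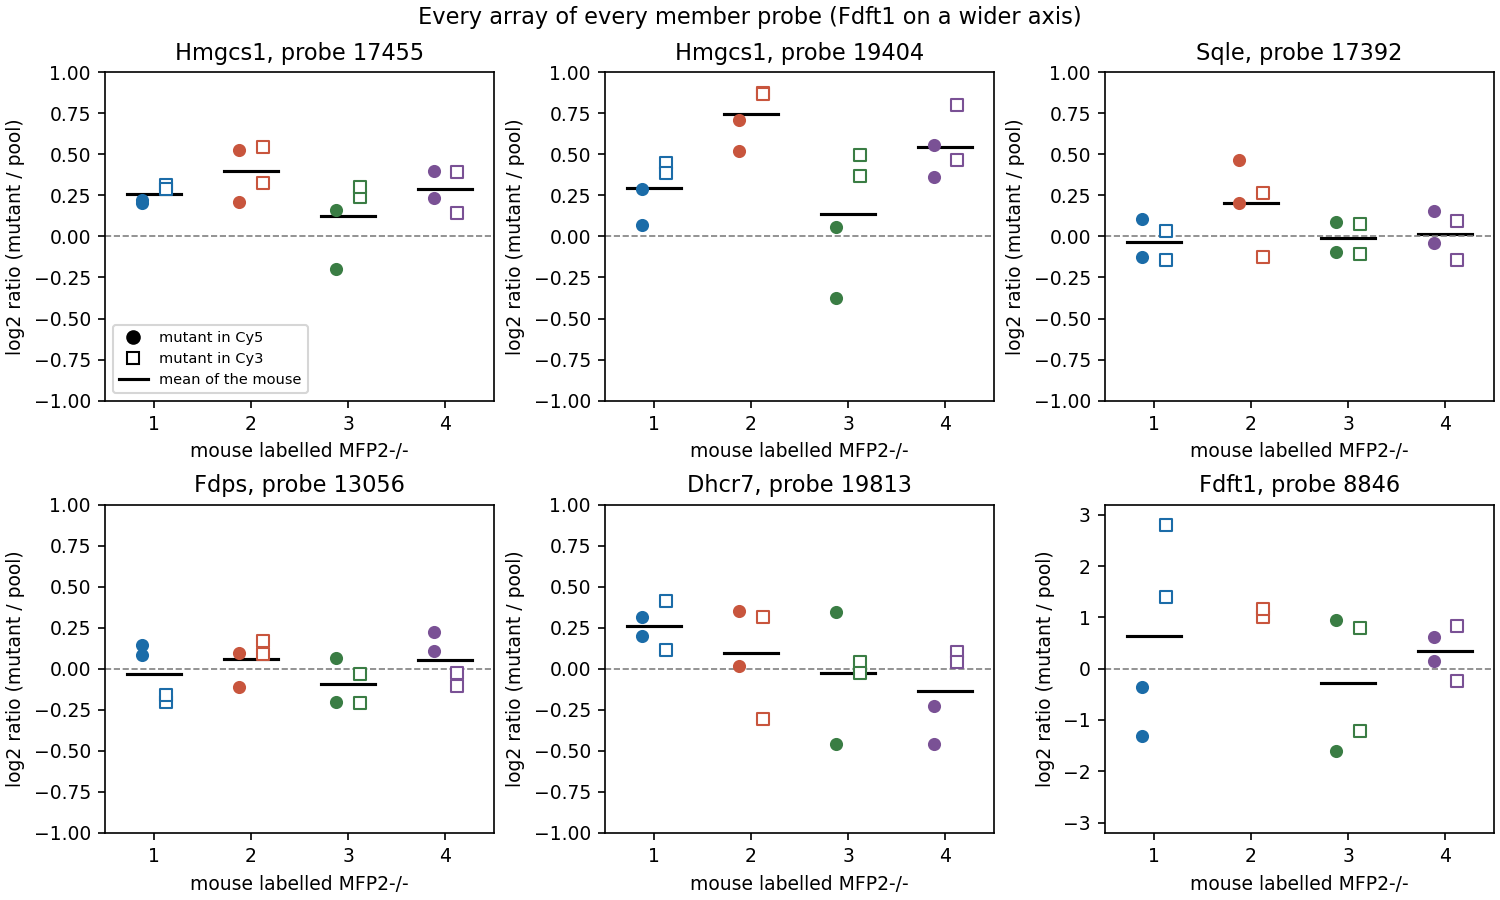
Log2 ratio (mutant over pool) on every array for the 6 probes of the 5 measured genes, with the mouse on the horizontal axis; filled circles are arrays with the mutant in Cy5, open squares those with it in Cy3, and black bars the mean of a mouse measured in both orientations. Both Hmgcs1 probes lie above 0 on 15 of 16 arrays, while those of Sqle, Fdps and Dhcr7 scatter around 0; the Fdft1 axis is wider.

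The next measured member on the path is Fdps, farnesyl diphosphate synthase, which makes the branch-point precursor of sterols and of protein prenyl groups. Fdps had -0.035, 0.061, -0.093 and 0.051 in mice 1 to 4, a mean of -0.0041 ± 0.073 (SD, n = 4). It lay on both sides of 0 and was the most precisely measured of the 5 genes, with a repeat SD (the spread between the arrays of a mouse in the same orientation) of 0.11. Its 95% interval ran from -0.15 to 0.14, and the limma adjusted p was 0.983. The interval does not show equality with the pool, but it leaves out a mean as large as that of Hmgcs1.

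Fdft1 is squalene synthase, the first enzyme committed to sterols. It had 0.64 in mouse 1, -0.27 in mouse 3 and 0.34 in mouse 4, and no value in mouse 2, where the probe was missing on both arrays with the mutant in Cy5. Its mean was 0.24 ± 0.46 (SD, n = 3). The 95% interval ran from -0.24 to 0.71, and the limma adjusted p was 0.683. Its arrays ran from -1.61 to 2.81 and its repeat SD was 1.03, against 0.28 for the median row, so no direction can be read for Fdft1. In mouse 1 the arrays with the mutant in Cy5 averaged -0.83 and those with it in Cy3 averaged 2.11.

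Sqle is squalene epoxidase, which adds oxygen to squalene and is a second control point of the pathway. Sqle had -0.032, 0.20, -0.011 and 0.016 in mice 1 to 4, with a mean of 0.044 ± 0.11 (SD, n = 4). Mouse 2 stood above the other mice, which lay close to 0. The 95% interval was -0.12 to 0.21 and the limma adjusted p was 0.828. Without mouse 2 the mean was -0.0091.

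Dhcr7 is 7-dehydrocholesterol reductase, which makes cholesterol in the last step of a branch of the pathway. It had 0.26, 0.094, -0.025 and -0.14 in mice 1 to 4, so mice fell on both sides of 0. Its mean was 0.048 ± 0.17 (SD, n = 4), with a 95% interval of -0.15 to 0.25 and a limma adjusted p of 0.848. Without mouse 1 the mean was -0.023.

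As a group the 5 genes had a median log2 ratio of 0.048, with 4 of 5 above 0, against a median of 0.00041 over all 16140 rows, of which 50.1% were above 0. Limma with Benjamini-Hochberg adjustment called 0 of 5 members and 0% of all rows, and at an unadjusted p under 0.05 it gave 1 of 5, Hmgcs1, against 9.04% of all rows. An absolute mean over 0.2 was seen in 2 of 5 members, Hmgcs1 and Fdft1, against 13.9% of rows, and all mice below 0 in 0 of 5 against 9.41%. The median of the members was 0.26, 0.15, -0.025 and 0.051 in mice 1 to 4. Fdft1, for which no direction can be read, enters the medians of mice 1, 3 and 4 but not of mouse 2. In mouse 1 the median is the value of Dhcr7, with Hmgcs1 and Fdft1 above it and Sqle and Fdps below 0. The order of mice 1 and 2 in these medians therefore rests on Fdft1. Mouse 2 was the highest of the mice measured for Hmgcs1, Sqle and Fdps, and mouse 1 for Dhcr7 and Fdft1. The ratio of Hmgcs1 exceeded the mean of those of Sqle, Fdps and Dhcr7 by 0.21, 0.45, 0.17 and 0.44 in mice 1 to 4; the genes were set side by side after their values were seen, and the difference was not tested.

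The dye orientation moved some members more than others. Hmgcs1 averaged 0.25 on arrays with Cy5-labelled mutant RNA and 0.45 on those with Cy3-labelled mutant RNA, above 0 in both, although mouse 3 had -0.089 in the first and 0.35 in the second. Its Cy5 minus Cy3 difference of -0.21 had a limma adjusted p of 0.12. Fdft1 averaged -0.26 and 0.73 in the same order over the 3 mice measured, Sqle 0.095 and -0.0064, Fdps 0.052 and -0.060, and Dhcr7 0.0091 and 0.086. A dye difference was called for 0 of the 4 members measured in all mice, against 8.4% of rows. If the deposited values were instead Cy5 over Cy3 on all arrays, the mean of Hmgcs1 would be -0.10 (limma adjusted p = 0.34) and the median of the members -0.039.

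**Figure D2:**
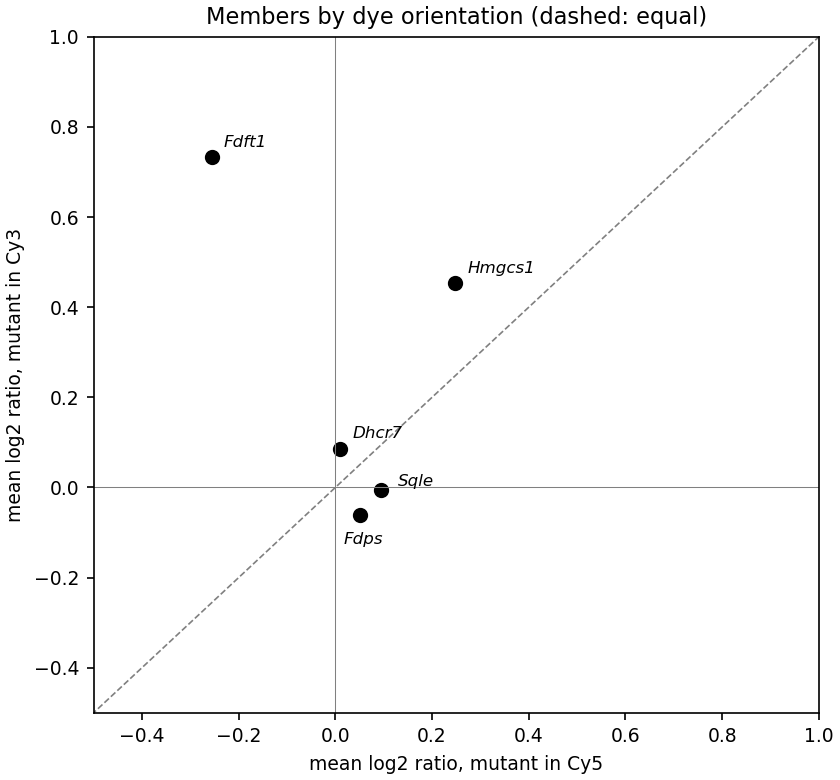
Mean log2 ratio of each of the 5 measured genes on arrays with the mutant in Cy5 (horizontal) and in Cy3 (vertical), over mice measured in both; the dashed line marks equal values. Hmgcs1 is positive on both axes (0.25 and 0.45), and Fdft1 has opposite signs (-0.26 and 0.73).

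Whether the 4 mice differed from each other by more than the arrays of a mouse did was tested with limma's F-test on 16 arrays with a dye term. It called 0 of the 4 members measured in all mice, against 0.189% of 15856 rows, and 1 of 4, Hmgcs1, had an unadjusted p under 0.05, against 11.2% of rows. For Hmgcs1 the p was 0.0137 and the limma adjusted p 0.282. Sqle had an adjusted p of 0.712, Fdps 0.832 and Dhcr7 0.686 in that test.

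The other enzymes of sterol synthesis came from a list of 16 genes, of which 10 were measured. Limma called 0 of these higher and 0 lower, 1 had an unadjusted p under 0.05, and 7 of 10 lay above 0, with a median of 0.018. Together with the members, 15 synthesis genes had a median of 0.044 and 2 of them, or 13.3%, had an unadjusted p under 0.05, against the 9.04% of all rows. In the mevalonate segment, the kinase Mvk had -0.055 ± 0.17 (SD, n = 3), the phosphomevalonate kinase Pmvk 0.11 ± 0.26 (SD, n = 4) and the decarboxylase Mvd -0.15 ± 0.16 (SD, n = 4). These lay around 0 with mice on both sides, and Pmvk averaged 0.39 when mutant RNA carried Cy5 but -0.18 when it carried Cy3.

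Ebp, the sterol isomerase that moves a double bond late in the pathway, was the other gene with an unadjusted p under 0.05. It had 0.022, 0.40, 0.31 and 0.20 in mice 1 to 4, with a mean of 0.23 ± 0.16 (SD, n = 4; limma adjusted p = 0.548). All 4 mice were above 0, and so were both orientations, at 0.21 (Cy5) and 0.25 (Cy3). Cyp51, lanosterol demethylase, had 0.16 ± 0.24 (SD, n = 4), with 0.42 and -0.097 in the 2 orientations. The lamin B receptor Lbr, which also reduces a sterol double bond, had -0.18 ± 0.36, and Tm7sf2, a second reductase of that step, had 0.011 ± 0.15.

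Sc5d, lathosterol oxidase, and Erg28, a scaffold protein of sterol synthesis enzymes, were close to 0 in every mouse, with 0.0095 ± 0.056 and 0.024 ± 0.060 (SD, n = 4 each). Msmo1, a methylsterol oxidase, could not be read: its mice ran from -2.86 in mouse 2 to 3.35 in mouse 3, with a repeat SD of 1.22.

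**Figure D3:**
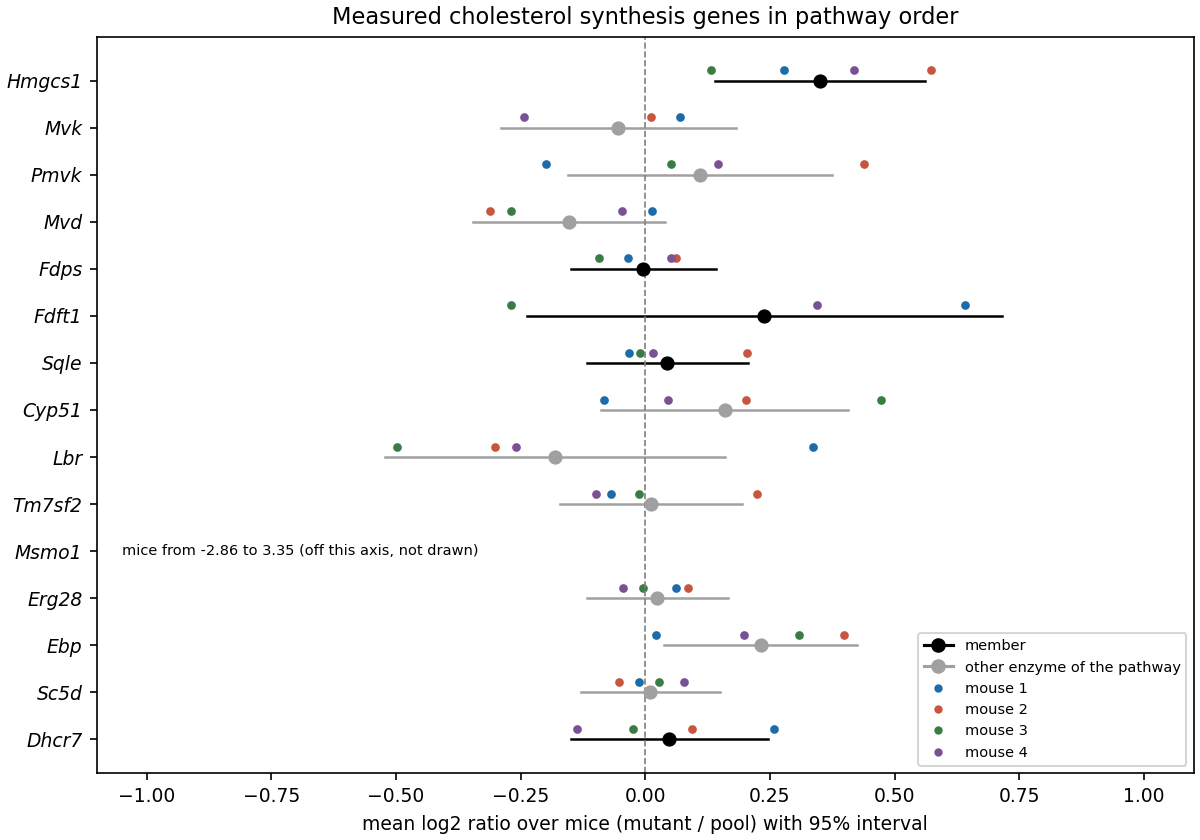
Mean log2 ratio (mutant over pool) with its 95% interval from limma for the measured cholesterol synthesis genes, in pathway order from top to bottom; black marks the 5 members, grey the other enzymes, and small coloured points are the mice. The intervals of Hmgcs1 and Ebp lie above 0 before adjustment; Msmo1 is off the axis.

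The regulators of SREBP processing were a list of 13 genes with 9 measured. Limma called 0 in either direction, and the list median was 0.069. At an unadjusted p under 0.05 limma gave 1 of 9, against 9.04% of all rows. Srebf2, which encodes SREBP2 itself, had -0.043, 0.030, -0.069 and 0.021 in mice 1 to 4, a mean of -0.015 ± 0.048 (SD, n = 4). Its mice stayed close to 0, and the limma adjusted p was 0.932. Scap, the escort protein, had 0.13 ± 0.18, and Insig2, the INSIG protein that was measured, had 0.12, 0.14, 0.024 and 0.48 in mice 1 to 4, a mean of 0.19 ± 0.20 with a limma adjusted p of 0.574. Mbtps1, the Golgi protease that makes the first cut in SREBP, had 0.11 ± 0.15.

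The rest of that list lay on both sides of 0. Erlin1, an endoplasmic reticulum protein that restrains SREBP activation, had -0.14 ± 0.062 (SD, n = 4), below 0 in all 4 mice, with an unadjusted p of 0.0484 and a limma adjusted p of 0.548. Its relative Erlin2 had 0.069 ± 0.11. Pgrmc1, a heme-binding protein that interacts with sterol enzymes, had the largest mean of the list at 0.23 ± 0.30, with -0.14 in mouse 1 and 0.59 in mouse 2. The ubiquitin ligase Rnf139 had 0.060 ± 0.14 and Spring1, a factor needed for SREBP processing, -0.072 ± 0.090.

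Of 20 genes of lipoprotein uptake and cholesterol transport, 11 were measured, with 6 above 0 and a median of 0.021. Limma called 0, and 0 had an unadjusted p under 0.05, against 9.04% of all rows. Mylip, a ubiquitin ligase induced by LXR, had -0.024 ± 0.070, and Scarb1, the HDL receptor, had 0.062 ± 0.029 (SD, n = 4 each). Scarb1 was above 0 in all mice but averaged 0.23 when mutant RNA carried Cy5 and -0.10 when it carried Cy3. Lipa, the lysosomal acid lipase that frees cholesterol from its esters, had the highest mean of the list at 0.22 ± 0.20, with -0.22 and 0.66 in the 2 orientations, and Stard5, a cholesterol-binding protein, the lowest at -0.077 ± 0.050.

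Of 15 LXR targets and efflux genes, 6 were measured, with a median of 0.036 and 0 called by limma. At an unadjusted p under 0.05 limma gave 1 of 6, against 9.04% of all rows. That gene was Cyp7b1, an oxysterol hydroxylase, with 0.094, 0.72, 0.092 and 0.27 in mice 1 to 4 and a mean of 0.29 ± 0.30 (SD, n = 4; limma adjusted p = 0.548). All mice were above 0, with mouse 2 highest. Nr1h3, which encodes the oxysterol receptor LXR alpha, had 0.18 ± 0.41, with 0.74 in mouse 2 and -0.13 in mouse 1. Its orientations had opposite signs, at -0.20 (Cy5) and 0.56 (Cy3), and its repeat SD was 0.69, so its direction is uncertain. The lowest was Lpcat3, a phospholipid acyltransferase, at -0.050 ± 0.084.

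Among markers of tissues next to the kidney, 6 measured genes were of the adrenal cortex and 2 of the adrenal medulla. Limma's F-test between mice called 1 of the 6 and 1 of the 2, against 0.189% of 15856 rows. The cortex makes steroid hormones from cholesterol. The cortex markers, 6 of 10 listed, had medians of -0.032, -0.089, 0.29 and -0.062 in mice 1 to 4. Star, which carries cholesterol into mitochondria, had 0.20, -0.75, 0.64 and -0.042 and was called between mice (limma F-test adjusted p = 0.00916), as was Chgb of the medulla list, with 0.030, -0.59, 0.93 and -0.12 (adjusted p = 0.0456). The other 6 measured adrenal markers had adjusted p from 0.595 to 0.973 in that test. Star and Chgb were highest in mouse 3 and lowest in mouse 2, where Hmgcs1 was lowest and highest in turn. Hsd3b1 and Cyp11a1 of the cortex list were also highest in mouse 3, at 0.58 and 0.12, but lowest in mouse 4. Hsd3b1, Cyp11a1, Nr5a1, Chga and Mrap were not called between mice, so the order of mice in each is uncertain. Nr5a1, a steroidogenic transcription factor, had -0.095 in mouse 3, and its adjusted p in that test was 0.952. Chga had 0.33 in mouse 1 and 0.32 in mouse 3, with a repeat SD of 0.80. Its orientations had opposite signs, at -0.44 (Cy5) and 0.59 (Cy3). Mrap had -0.13 in both mouse 1 and mouse 2. Cyp21a1, steroid 21-hydroxylase, was highest in mouse 1 at 0.98. Its repeat SD was 1.41, with -1.49 (Cy5) and 2.12 (Cy3) in the 2 orientations, so its order cannot be read. The cortex median of 0.29 in mouse 3 lay midway between Cyp21a1 there, at 0.46, and Cyp11a1, at 0.12. Without Cyp21a1 the median in mouse 3 would be the value of Cyp11a1. The part of adrenal RNA in the values of Hmgcs1 was not tested.

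Kidney tubule markers, with 7 of 11 genes measured, had medians of -0.074, 0.21, -0.099 and 0.26 in mice 1 to 4. They ran from -0.20 for Slc34a1, the proximal phosphate transporter, to 0.56 for Slc12a1, the thick limb cotransporter. Umod, also a thick limb gene, had -0.15 ± 0.20, and the proximal genes Lrp2 and Slc22a6 had 0.021 ± 0.21 and 0.015 ± 0.18. Umod, Lrp2 and Slc22a6 each had mice on both sides of 0, so no direction can be read for them. Limma called 0 of 7, but 4 of 7 had an unadjusted p under 0.05, against 9.04% of all rows: Slc34a1, Slc12a1, the collecting duct water channel Aqp2 at 0.46 ± 0.25 and the endocytic receptor Cubn at 0.24 ± 0.096 (SD, n = 4 each). Slc12a1 and Aqp2 were above 0 in all mice, with means larger than that of Hmgcs1, and like it were highest in mouse 2. Cubn was also above 0 in all mice, while Slc34a1 was below 0 in all mice. Mice 2 and 4, with the higher tubule medians, were also the mice with the higher Hmgcs1 ratios, and the part of this in the result was not tested. The 6 measured fat markers of 8 had a median of 0.0068, the 4 blood and immune markers of 7 one of -0.047, and the 3 liver markers of 4 one of 0.055. Limma called 0 in each of these lists, and 1 gene of each had an unadjusted p under 0.05. These were Fabp4, a fatty acid binding protein of fat cells, at 0.33 ± 0.32, Hba-a1, alpha globin, at -0.34 ± 0.29, and Apoa1, the main HDL protein, at -0.22 ± 0.030 (SD, n = 4 each). All 4 blood and immune markers had a mean below 0, while 50.1% of all rows were above 0. Apart from Hba-a1 the means were small, at -0.017 for Ptprc, -0.033 for Lyz2 and -0.060 for Cd68. Each of the 4 had mice on both sides of 0.

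**Figure D4:**
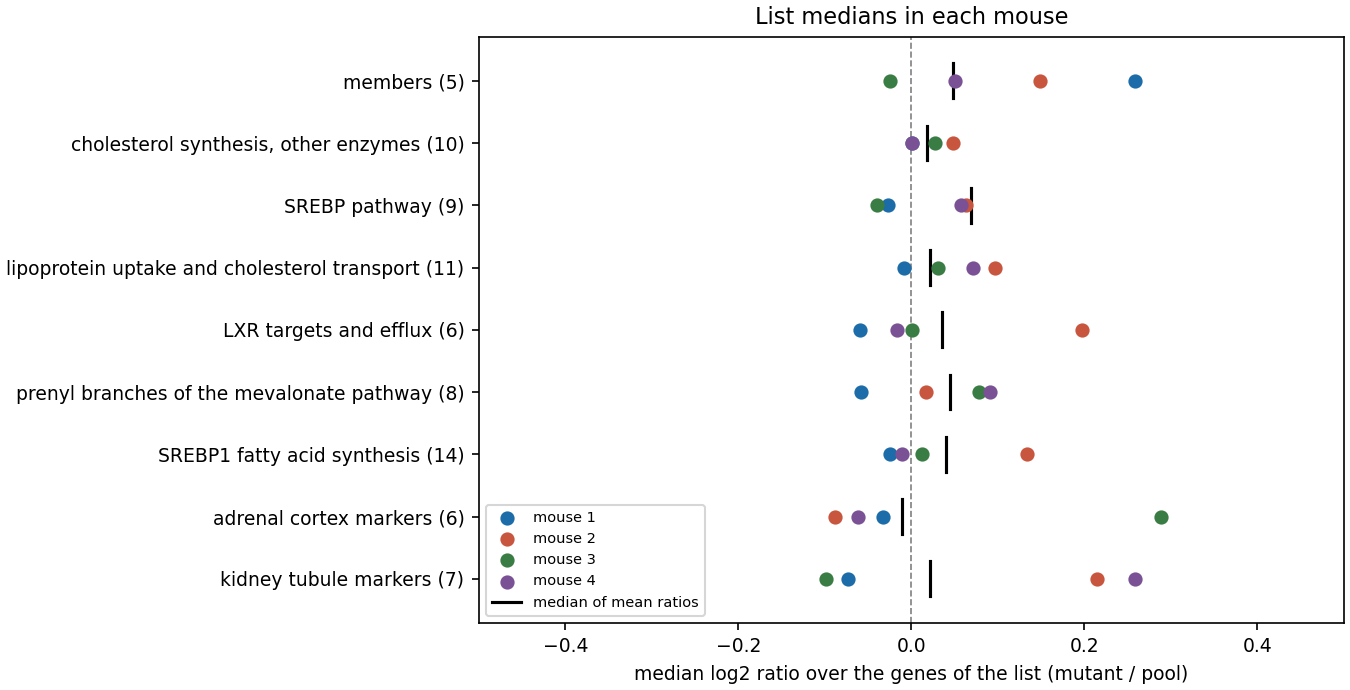
Median log2 ratio (mutant over pool) over the measured genes of each list in each mouse (coloured points), with the median of the mean ratios as a black bar; the number of measured genes is in parentheses. The members run from -0.025 in mouse 3 to 0.26 in mouse 1, and the adrenal cortex markers stand at 0.29 in mouse 3 against -0.089 to -0.032 in the others. The mouse 1 value of the members depends on Fdft1, and the mouse 3 value of the cortex markers on Cyp21a1. Neither gene could be read.

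The genes whose pattern was most like the median of the members were sought among 2097 named genes with a repeat SD under 0.2, by the root mean square difference over the 8 means of mouse and orientation. The nearest 5 were Stx16 with a difference of 0.082, Zfp326 with 0.084, Dhx58 with 0.087, Myl12a with 0.090 and Eif1b with 0.091 on the log2 scale. Their mean log2 ratios lay between 0.077 for Dhx58 and 0.13 for Eif1b. Each of these differences was below the gene's own repeat SD, which ran from 0.14 to 0.20, so the order among them carries no weight.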

How the data were processed

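Per the labels, 16 two-channel cDNA arrays compared kidney RNA of 4 mice with 1 wild-type pool. The authors deposited 1 log2 ratio per probe and array. Background correction, normalisation, log base and direction were not stated in the sources used here, and the base was inferred from extreme values. Without intensities the signal over background is unknown, and precision is limited by the number of arrays. Arrays held 19737 to 20228 values each. Of 20355 probes, 14030 had 1 platform symbol, 5 several and 6320 none; 13994 symbols were brought up to date by gene identifier, from RefSeq for GRCm38.p6.

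Values with an absolute size over 10 (510 spots, 0 of them on member probes) were set missing, and arrays were centred on their medians. Array repeats were averaged within orientation and then over orientations. Probes needed both orientations in at least 3 mice (20187 kept); probes of a symbol were averaged, giving 16140 rows. Means over mice were compared with 0 in limma 3.58.1 in R 4.3.3 (lmFit, eBayes, two-sided, Benjamini-Hochberg at 0.05). The pool is 1 control sample, so the spread among wild-type animals is left out. Mice and dyes were compared in a limma fit to all arrays. Scripts were tested on simulated data.

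The members, lists, tests and naming rule were chosen with earlier results of these data known. The rule named all members, all measured genes of the synthesis and SREBP lists, chosen uptake and efflux genes, each list's extremes and the nearest 5 patterns. Star, Chgb, Cyp7b1, the genes with uneven mice and the other single marker genes were named after their values were seen. Alternatives covered centring, scaling, probes, missing values, mouse as a random block (statmod 1.5.0), medians, single orientations or repeats, prior, floor spots, direction and leaving out each mouse. Some genes of the pathway are not reported here.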

Additional observations from a re-analysis of the deposited data

Results flagged for a closer look

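Among the 99 sets of 4 mouse values examined, 5 had a mouse far from the other mice, by Dixon's test at 95%; chance alone gives about 1 in 20, so this number is near what chance gives. None of them was a member. Mouse 3 stood apart for Erlin1, at -0.051 where the other mice lay between -0.18 and -0.16, for the adrenal marker Hsd3b1, at 0.58, and for the fat marker Cidec, at 0.55. Mouse 2 stood apart for Elovl6, a fatty acid elongase, at 0.23, and mouse 4 for the liver marker Apoa1, at -0.27, where all mice were below 0.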

How the results depend on the processing

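Hmgcs1 stayed above 0 under 17 of 18 alternatives, at 0.25 to 0.45 in all of these, and with 1 exception did not pass the threshold. The exception was a fit of single arrays that took mice as random blocks and had a dye term (0.35, limma adjusted p = 0.00644, 1 member and 221 rows called); its within-mouse correlation of 0.036 lets arrays of a mouse count almost as separate samples. Read as Cy5 over Cy3, signs turned for Hmgcs1 (-0.10), Dhcr7 (-0.039), Fdft1 (-0.49), Fdps (0.056) and the member median (-0.039), and limma called 12 rows, 0 of them members. Limma called 3 rows with the mutant in Cy5 alone and 1 with it in Cy3 alone. With Cy5 alone, Fdft1 had -0.26 and Fdps 0.052, and with Cy3 alone Sqle had -0.0064. On repeat 1 alone Fdps had 0.0084; on repeat 2 alone Dhcr7 had -0.040, Fdft1 -0.47 and the member median -0.017. Leaving out each mouse in turn gave -0.023 to 0.11 for Dhcr7, -0.026 to 0.026 for Fdps, -0.0091 to 0.070 for Sqle, 0.037 to 0.49 for Fdft1, 0.28 to 0.42 for Hmgcs1 and 0.032 to 0.11 for the member median. The cause of these changes was not tested. The median without Fdft1, an alternative chosen after seeing the data, was 0.046. No paired analysis was possible because the study has a single group of mice against a pool.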

Other observations

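Fatty acid synthesis under SREBP1 was measured in 14 of 15 listed genes, with a median log2 ratio of 0.040. Limma called 0, and 1 of 14 had an unadjusted p under 0.05, against 9.04% of all rows. That gene was Acaca, acetyl-CoA carboxylase, with -0.035, -0.24, -0.36 and -0.52 in mice 1 to 4, a mean of -0.29 ± 0.21 (SD, n = 4) and a limma adjusted p of 0.548. All mice were below 0, but the mean was -0.59 when mutant RNA carried Cy5 and 0.0091 when it carried Cy3. Fasn, fatty acid synthase, had -0.21 ± 0.22 and was below 0 in all mice, with -0.34 (Cy5) and -0.079 (Cy3) in the 2 orientations. Its repeat SD was 0.83, against 0.28 for the median row, so its direction is uncertain. Acly, ATP citrate lyase, had -0.0068 ± 0.19. Scd1, stearoyl-CoA desaturase, had -0.55, 0.22, 0.26 and -0.13, a mean of -0.050 ± 0.37, with a limma F-test adjusted p between mice of 0.0559. Thrsp had the highest mean, 0.49 ± 0.89 in 3 mice, with 1.51 in mouse 1. Its orientations had opposite signs, at -0.30 (Cy5) and 1.28 (Cy3), and its repeat SD was 0.60, so its direction is uncertain.

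The prenyl branches of the mevalonate pathway, which use the product of Fdps, had 8 of 12 listed genes measured and a median of 0.045. Limma called 0, and 1 of 8, Nus1, had an unadjusted p under 0.05, against 9.04% of all rows. Nus1, a subunit of the enzyme that makes dolichol precursors, had 0.18, 0.16, 0.14 and 0.33 in mice 1 to 4, a mean of 0.20 ± 0.087 (SD, n = 4; limma adjusted p = 0.548). It was above 0 in all mice and in both orientations, but unevenly, at 0.071 (Cy5) and 0.33 (Cy3). Ggps1, which makes geranylgeranyl diphosphate, had 0.010 ± 0.12, and Fntb, a farnesyltransferase subunit, had the lowest mean at -0.069 ± 0.028.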
